A study of Mus musculus with 16 samples.

Results

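The E2F transcription factors and the retinoblastoma proteins that bind them were taken as 10 genes by symbol, E2f1 to E2f8, Rb1 and Rbl1. All 10 were found among the 22375 genes of the deposited count tables, each under 1 Ensembl identifier, and all 10 passed the filter on low counts. RNA came from mouse embryonic stem (ES) cells of strain 129/OLA, either wild-type (WT, the E14Tg2a line) or Cfp1-/-, which lack the CpG-binding protein Cfp1, encoded by Cxxc1. Each line was left untreated or treated with doxorubicin, a DNA-damaging topoisomerase inhibitor, for 6 hours. The treatment protocol of the samples gives the dose as 1 µM, whereas the treatment label of the treated samples gives 1 mM. Every one of the 4 groups holds 2 biological replicates, and each of these was sequenced as 2 technical replicates, which were summed. The sources used here do not state whether biological replicates came from separate cultures or clones, so p-values measure only the spread between these samples, which may be technical. Each genotype is represented by 1 line, so a difference between lines cannot be told apart from a difference between the clones that carry them.

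E2F factors bind promoters of genes for DNA replication and cell cycle progression. E2f1, E2f2 and E2f3 are known as activators that are held in check by the pocket protein Rb1. E2f4 and E2f5 act mainly as repressors together with the pocket proteins Rbl1 and Rbl2, E2f6 is part of a Polycomb complex that silences germline genes, and E2f7 and E2f8 are atypical repressors that bind DNA without a partner. The others bind DNA as dimers with Tfdp1 or Tfdp2. Cyclin-dependent kinases phosphorylate the pocket proteins and so release the activators, and kinase inhibitors such as Cdkn1a keep them bound. ES cells are known for a short G1 phase with high cyclin-dependent kinase activity, and E2F promoters are typically rich in CpG.

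RefSeq promoter windows of 300 bases, from 250 before to 50 after a transcription start of build GRCm38.p6, were given for 7 of the members, E2f1, E2f2, E2f3, E2f6, E2f7, E2f8 and Rbl1, in 9 windows, and each window occurred once in the genome build of the deposited tables (NCBIM37). E2F motifs were searched on both strands as 8 letters (TTTGGCGC, TTTCCCGC, TTTCGCGC or TTTGCCGC) and as the 7-letter cores that lack the first T, which overlap them. An 8-letter match was found in 1 window each of E2f2, E2f3, E2f7 and Rbl1, against 2.26% of all 32851 windows, and a 7-letter core was also found in the window of E2f8, against 9.57% of all windows. These 5 windows are shown because the genes that hold the matches differ in what their RNA did. Coordinates are those of NCBIM37, the sequence runs 5′ to 3′ on the strand of the gene, and capitals mark the matches.
E2f2, chr4:135727939-135728238, plus strand: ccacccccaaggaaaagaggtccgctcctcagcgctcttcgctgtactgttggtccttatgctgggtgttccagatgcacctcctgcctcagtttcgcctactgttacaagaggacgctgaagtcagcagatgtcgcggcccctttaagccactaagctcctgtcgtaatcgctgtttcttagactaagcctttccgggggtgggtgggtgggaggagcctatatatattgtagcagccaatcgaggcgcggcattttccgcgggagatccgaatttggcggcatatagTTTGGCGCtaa
E2f3, chr13:30077883-30078182, minus strand: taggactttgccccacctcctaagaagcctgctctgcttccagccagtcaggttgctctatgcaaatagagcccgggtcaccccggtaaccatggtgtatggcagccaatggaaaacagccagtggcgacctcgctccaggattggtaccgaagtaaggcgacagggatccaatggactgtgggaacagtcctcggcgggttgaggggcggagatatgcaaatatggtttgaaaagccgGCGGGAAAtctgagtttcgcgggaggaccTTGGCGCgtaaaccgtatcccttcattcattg
E2f7, chr10:110182245-110182544, plus strand: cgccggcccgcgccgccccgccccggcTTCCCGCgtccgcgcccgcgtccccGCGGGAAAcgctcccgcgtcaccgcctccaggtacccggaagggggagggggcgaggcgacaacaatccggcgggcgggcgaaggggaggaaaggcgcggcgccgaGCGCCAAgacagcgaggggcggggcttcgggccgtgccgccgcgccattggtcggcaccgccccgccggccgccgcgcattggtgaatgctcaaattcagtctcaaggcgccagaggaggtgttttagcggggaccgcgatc
E2f8, chr7:56136917-56137216, minus strand: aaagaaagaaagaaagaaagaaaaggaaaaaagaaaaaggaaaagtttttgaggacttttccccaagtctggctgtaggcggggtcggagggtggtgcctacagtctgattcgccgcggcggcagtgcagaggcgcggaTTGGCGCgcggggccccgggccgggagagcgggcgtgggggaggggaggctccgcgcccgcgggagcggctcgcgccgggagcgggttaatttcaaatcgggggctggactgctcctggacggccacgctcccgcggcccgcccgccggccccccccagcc
Rbl1, chr2:157030221-157030520, minus strand: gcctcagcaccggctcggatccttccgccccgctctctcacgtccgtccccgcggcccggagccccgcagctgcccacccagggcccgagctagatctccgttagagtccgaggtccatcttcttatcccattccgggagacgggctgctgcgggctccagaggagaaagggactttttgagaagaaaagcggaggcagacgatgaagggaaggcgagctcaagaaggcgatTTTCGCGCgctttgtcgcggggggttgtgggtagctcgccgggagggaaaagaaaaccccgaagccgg

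The match in E2f2 lies 39 to 46 bases after the RefSeq start, and that in E2f3 11 to 4 bases before it, with a further core 18 to 24 bases after it. Those in Rbl1 and E2f8 lie 18 to 11 and 111 to 105 bases before the start. In E2f7 the 8-letter match lies 198 to 191 bases before the start, between cores at 223 to 217 and 92 to 86 bases before it. The RefSeq starts of E2f2 and E2f3 lie 120 and 395 bases upstream of the gene starts in the deposited annotation. That of E2f1 lies 466 bases downstream of its gene start, so the sequence before that gene start was not searched. The other windows of E2f2 and E2f3, which are not shown, have starts 8388 and 1277 bases downstream. These 5 windows held between 16 (E2f3) and 49 (E2f7) CpG dinucleotides, against a median of 7 over all windows. Each E2F motif itself holds a CpG, and the shares of all windows with a match were not taken at like CpG content. The p53 decamer consensus was found in none of the 9 windows and in 8.36% of all windows. A match is a description of letters, and binding was not measured here.

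The genotype labels were checked on Cxxc1, with 616 to 1412 raw counts across the 4 WT libraries and 4, 3, 5 and 1 in the Cfp1-/- replicates. The p53 targets Cdkn1a and Mdm2 rose in both lines, in WT cells with log2 fold changes of 3.33 and 2.69. Total counts per biological replicate ran from 14880589 to 29422711, with the 4 treated replicates below the 4 untreated ones. All 8 ES cell markers were above 3 counts in every group, and their summed level fell from between 68894 and 93980 normalized counts in untreated to between 26620 and 35939 in treated WT cells. Of the 7 fibroblast markers 6 were above that floor in WT cells (not Lum) and 5 in Cfp1-/- cells (not Lum and Col3a1), and their sum rose from between 254 and 260 to between 552 and 751 normalized counts with treatment in WT cells and from between 197 and 258 to between 740 and 793 in Cfp1-/- cells. Of the 6 fibroblast markers tested, 3 were called higher with treatment in each line, and in WT cells the other 3 had negative log2 fold changes. The part of these markers in the results on the family was not tested. In replicate 1 of each treated group the technical replicates differed by more than sampling noise (the chi-square over its degrees of freedom was 9.61 in WT and 42.9 in Cfp1-/- cells against 0.998 to 1.05 in the other 6). The second run of treated Cfp1-/- replicate 1 held no counts for 439 genes with at least 200 in the first run, of which 209 lie on chromosome 19, 225 on X and 5 on Y, and no member was among them.

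In untreated WT cells the family was dominated by E2f4. Levels were compared between genes as normalized counts per kb of exon, where the normalized count is the summed raw count divided by a size factor. E2f4 stood at 1312 and 1327 per kb in the replicates, followed by E2f5 (443 and 511), E2f6 (384 and 454), E2f8 (382 and 314), E2f3 (193 and 187), Rbl1 (188 and 174), E2f7 (99.1 and 124), Rb1 (78.4 and 74.0), E2f1 (71.1 and 56.5) and E2f2 (70.5 and 40.6). The replicates of E2f5 and E2f6, of E2f3 and Rbl1, and of E2f1 and E2f2 overlapped, so these neighbours were not ordered. E2f4 and E2f5 together made up 59.4% and 61.0% of the E2f signal per kb, and the activators E2f1 to E2f3 made up 11.3% and 9.42%. In treated cells the activators made up 22.4% and 16.0% of the E2f signal in WT replicates, and in Cfp1-/- cells their share was 10.8% and 9.71% without and 17.5% and 16.8% with doxorubicin. Of the 3 activators only E2f1 passed the test as higher, and the sum of E2f4 and E2f5, the largest part of the total, went from 1755 and 1838 to 1130 and 1197 per kb in WT and from 1337 and 1319 to 914 and 824 in Cfp1-/- cells. Rb1 and Rbl1 together rose from 266 and 248 to 705 and 591 per kb in WT cells and from 350 and 291 to 714 and 828 per kb in Cfp1-/- cells. Rb1 thereby moved from rank 8 to rank 2 among the 10 members in WT cells, and from rank 7 to rank 1 in Cfp1-/- cells, where its replicates (559 and 696 per kb) overlapped those of E2f4 (591 and 570). E2f2 had the lowest mean in all 4 groups, below all other members without overlap except in untreated WT cells, where it overlapped E2f1.

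**Figure D1:**
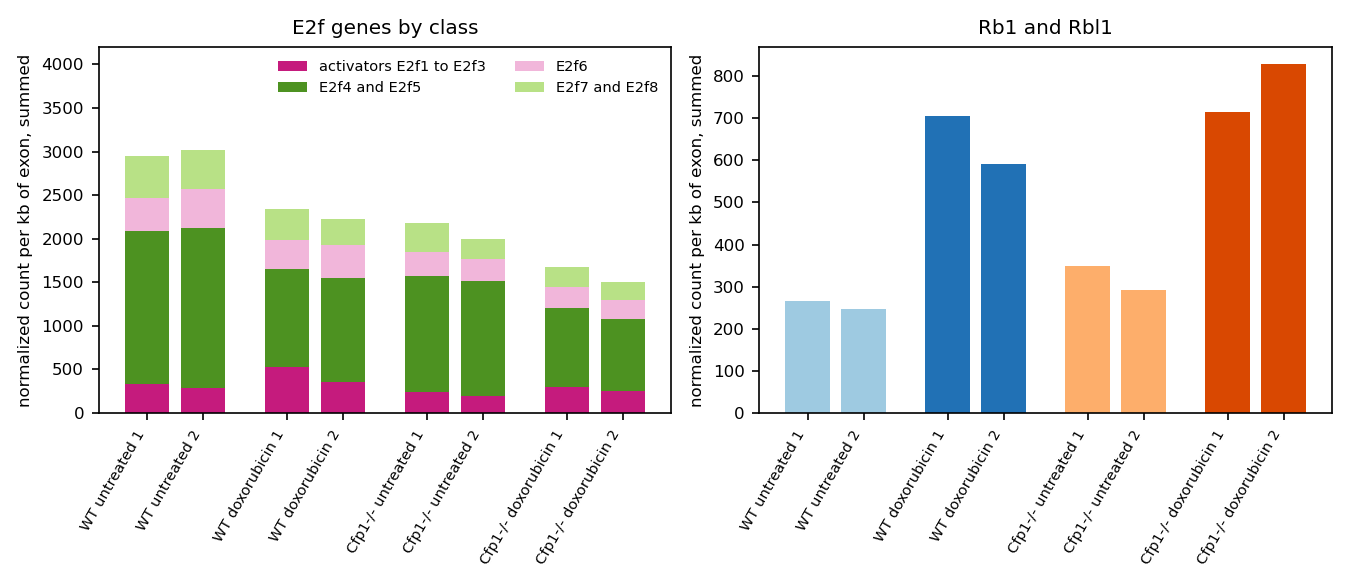
Normalized counts per kb of exon (vertical axis), summed over E2f classes (left, stacked bars) and over Rb1 and Rbl1 (right), in each of the 8 biological libraries (horizontal axis). The E2f4 and E2f5 bars are the tallest part of every stack, and the Rb1 and Rbl1 bars are higher in all treated than in all untreated libraries.

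The first comparison asks how the family responds to DNA damage in WT cells. Doxorubicin raised Rb1, E2f1 and E2f7 and lowered E2f8, E2f5 and E2f4 in WT cells, at an adjusted p under 0.05 (edgeR, quasi-likelihood, Benjamini-Hochberg over 15758 genes). These 3 of 10 members higher and 3 lower stand against 26.5% of all tested genes called higher and 21.8% called lower, so the share of members called was near that of all genes. The median log2 fold change was -0.23 over the members and 0.06 over all tested genes. Under further limits, a 2.5-fold change and on average 200 normalized counts, E2f1, E2f8 and Rb1 passed, against 7.91% of all genes. In bulk RNA, fewer cells with a transcript and less of it per cell cannot be told apart. The same 3 members were higher and the same 3 lower in Cfp1-/- cells, where 27.8% of all genes were called higher and 21% lower, and E2f1 and Rb1 passed the further limits, against 7.61% of all genes.

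**Figure D2:**
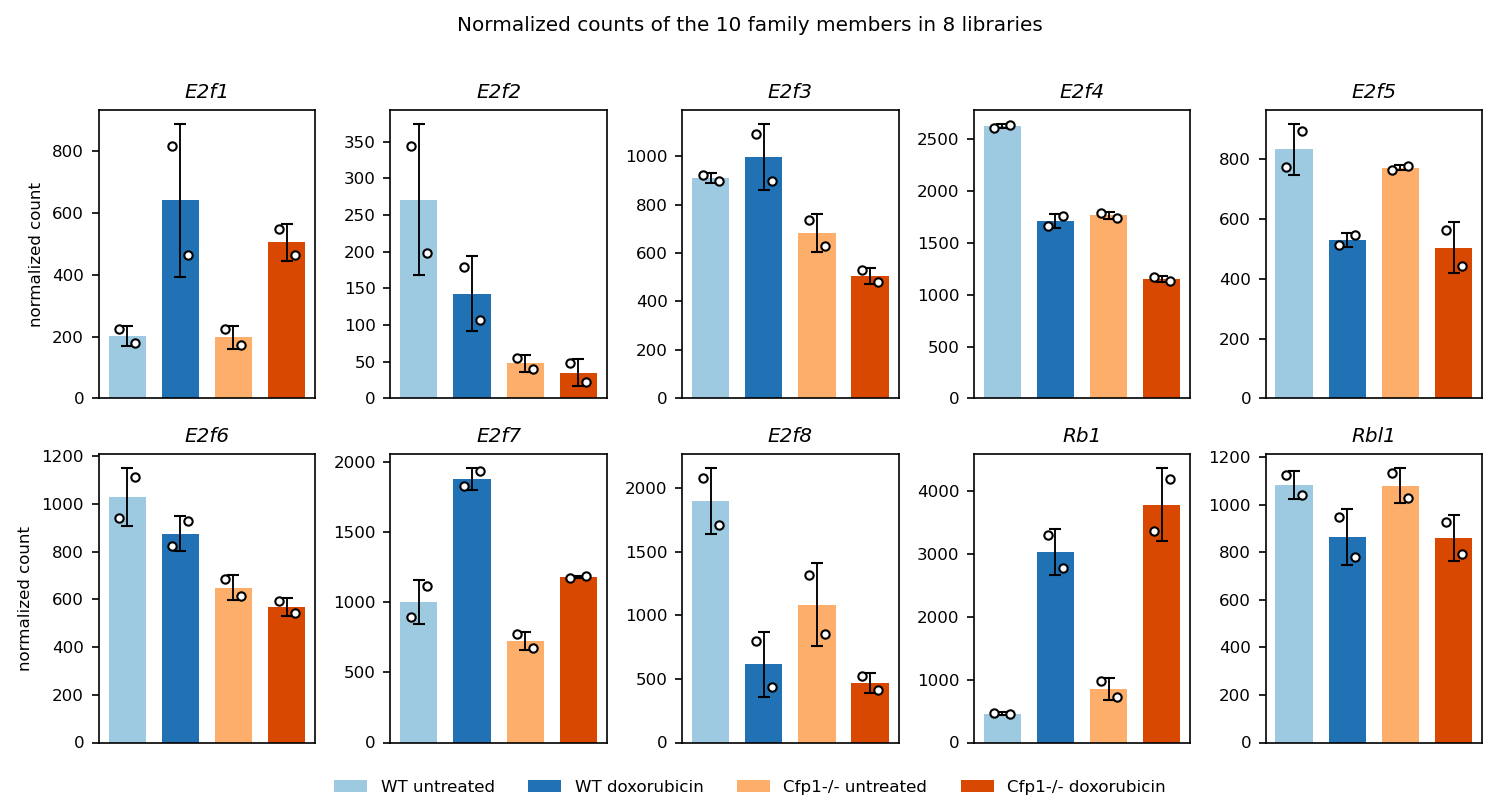
Normalized counts (vertical axes, each from 0) of the 10 members in untreated and doxorubicin-treated WT and Cfp1-/- cells. Bars are means, error bars are SD (n = 2) and open circles are the biological replicates; Rb1 rises from 471 and 445 to 3288 and 2773 in WT cells, and E2f4 is lower in treated than in untreated cells of each line.

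Among the activators, E2f1, which drives S phase entry and, when overactive, apoptosis, stood at 224 and 178 normalized counts in untreated and 816 and 466 in treated WT replicates. In Cfp1-/- cells it went from 224 and 172 to 547 and 464. All treated replicates lay above all untreated ones, and the treated WT replicates were the most spread. The log2 fold change was 1.71 (standard error 0.29, adjusted p = 0.000951) in WT and 1.40 (0.28, adjusted p = 0.00293) in Cfp1-/- cells. E2f2, a further activator, stood at 344 and 198 in untreated and 179 and 107 in treated WT replicates, and at 55.6 and 39.7 against 48.0 and 22.2 in Cfp1-/- cells. Its WT groups did not overlap, whereas its Cfp1-/- groups did. Its log2 fold changes were -0.88 (standard error 0.41, adjusted p = 0.105) and -0.40 (0.47, adjusted p = 0.509). Same-numbered replicates deviated together, but arbitrary numbers could give this too, and pairing is not established. With the replicate number as a block in edgeR the WT value was -0.87 with an adjusted p of 0.00715. E2f3, the activator with the highest level per kb in untreated cells, stood at 923 and 895 in untreated and 1092 and 899 in treated WT replicates, and these groups overlapped. In Cfp1-/- cells it went from 738 and 629 to 529 and 482, without overlap. Its log2 fold changes were 0.18 (standard error 0.16, adjusted p = 0.399) and -0.39 (0.16, adjusted p = 0.0732), the latter with an adjusted p of 0.0299 with the block. Under total count scaling E2f3 was called higher in WT cells, with 0.49 (adjusted p = 0.0286).

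Both repressors that work with pocket proteins fell. E2f4, the main E2F of quiescent cells, stood at 2614 and 2643 normalized counts in untreated and 1665 and 1760 in treated WT replicates. In Cfp1-/- cells it went from 1791 and 1741 to 1176 and 1135. The replicates of each group lay close together and no groups overlapped within a line. Its log2 fold change was -0.57 in both lines (standard error 0.12, adjusted p = 0.00333 in WT and 0.00348 in Cfp1-/- cells). E2f5, its closest relative, went from 774 and 893 to 515 and 548 in WT and from 766 and 778 to 565 and 444 in Cfp1-/- cells. Its log2 fold changes were -0.60 (0.17, adjusted p = 0.0156) and -0.57 (0.17, adjusted p = 0.0197), and treated replicates again lay below untreated ones in each line. E2f6, the Polycomb-linked member, stood at 942 and 1114 in untreated and 823 and 928 in treated WT cells, and at 686 and 613 against 593 and 541 in Cfp1-/- cells. Its log2 fold changes of -0.18 (0.16, adjusted p = 0.365) and -0.15 (0.16, adjusted p = 0.46) did not pass the test.

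Most of these small decreases lost their call under another scaling. Scaling by total counts instead of TMM moved the median of all tested genes by 0.31 in WT and 0.21 in Cfp1-/- cells, and the genes called higher and lower from 4174 and 3433 to 5731 and 1836 in WT and from 4386 and 3306 to 5271 and 2057 in Cfp1-/- cells. The log2 fold changes then became -0.26 for E2f4 (adjusted p = 0.0948) and -0.29 for E2f5 (adjusted p = 0.179) in WT cells and -0.36 for E2f5 (adjusted p = 0.104) in Cfp1-/- cells, whereas those of E2f6 changed sign to 0.13 and 0.062. E2f4 in Cfp1-/- cells kept its call, at -0.35 (adjusted p = 0.0312). The call of E2f5 in WT cells was also lost without untreated WT replicate 2 (-0.51, adjusted p = 0.0885) or treated WT replicate 1 (-0.56, adjusted p = 0.0692). In Cfp1-/- cells it was lost without untreated Cfp1-/- replicate 1 (-0.59, adjusted p = 0.0589), untreated Cfp1-/- replicate 2 (-0.57, adjusted p = 0.0711) or treated Cfp1-/- replicate 2 (-0.40, adjusted p = 0.149).

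The atypical repressors E2f7 and E2f8 moved in opposite directions. E2f7, known as a target of p53 that holds back cell cycle genes after damage, stood at 893 and 1113 normalized counts in untreated and 1823 and 1932 in treated WT replicates. In Cfp1-/- cells it rose from 769 and 676 to 1172 and 1185. The log2 fold changes were 0.95 (standard error 0.15, adjusted p = 0.000735) and 0.75 (0.15, adjusted p = 0.00291). E2f8, which forms dimers with E2f7, fell from 2080 and 1712 to 795 and 433 in WT cells and from 1316 and 852 to 526 and 412 in Cfp1-/- cells. The log2 fold changes were -1.58 (0.30, adjusted p = 0.002) and -1.17 (0.30, adjusted p = 0.00977). Neither gene showed an overlap between treated and untreated replicates of a line. Per kb, E2f8 was higher than E2f7 in untreated cells of both lines, and E2f7 was higher than E2f8 in treated cells of both lines, with no overlap between the replicates. For E2f8 in Cfp1-/- cells the call was lost without untreated Cfp1-/- replicate 1 (-0.83, adjusted p = 0.0738) or treated Cfp1-/- replicate 2 (-1.0, adjusted p = 0.0831).

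Of the pocket proteins among the members, Rb1 rose in both lines and Rbl1 did not pass the test. Rb1, the retinoblastoma tumour suppressor, stood at 471 and 445 normalized counts in untreated and 3288 and 2773 in treated WT replicates. In Cfp1-/- cells it went from 970 and 719 to 3362 and 4186. The increases were 6.82-fold in WT cells (log2 2.77, standard error 0.19, adjusted p = 7.69e-06) and 4.60-fold in Cfp1-/- cells (log2 2.2, standard error 0.19, adjusted p = 2.22e-05), the largest changes of any member in either line. Rbl1, a relative of Rb1 that binds E2f4 in cycling cells, went from 1124 and 1042 to 948 and 781 in WT and from 1132 and 1028 to 928 and 790 in Cfp1-/- cells. Its treated replicates lay below its untreated ones in each line, but the log2 fold changes of -0.28 (0.16, adjusted p = 0.175) and -0.29 (0.16, adjusted p = 0.164) did not pass the test, and the WT value became 0.034 under total count scaling. The remaining pocket protein gene, Rbl2, which is no member here, rose 12.8-fold in WT (log2 3.67, adjusted p = 2.76e-06) and 8.64-fold in Cfp1-/- cells (log2 3.11, adjusted p = 5.46e-06).

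Rb1 was also the member whose technical replicates differed most in both libraries with unequal runs. Its raw counts were 1710 and 800 in the runs of treated WT replicate 1 and 2332 and 960 in those of treated Cfp1-/- replicate 1, deviations of 5.03 and 5.99 standard errors from the shares of all genes. Without the second runs of both libraries the log2 fold changes of Rb1 were 2.82 and 2.25. In the GENCODE annotation of NCBIM37 Rb1 overlaps the genes Rcbtb2 and Lpar6 on the opposite strand, which the stranded counting kept apart. It also overlaps Gm17233 and Mir687 on its own strand, which are not among the genes of the deposited tables. Union counting leaves out reads that lie on both of a pair overlapping on the same strand, where both are counted. E2f3, E2f8 and Rbl1 each overlap 1 gene on the opposite strand, which the stranded counting kept apart.

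**Figure D3:**
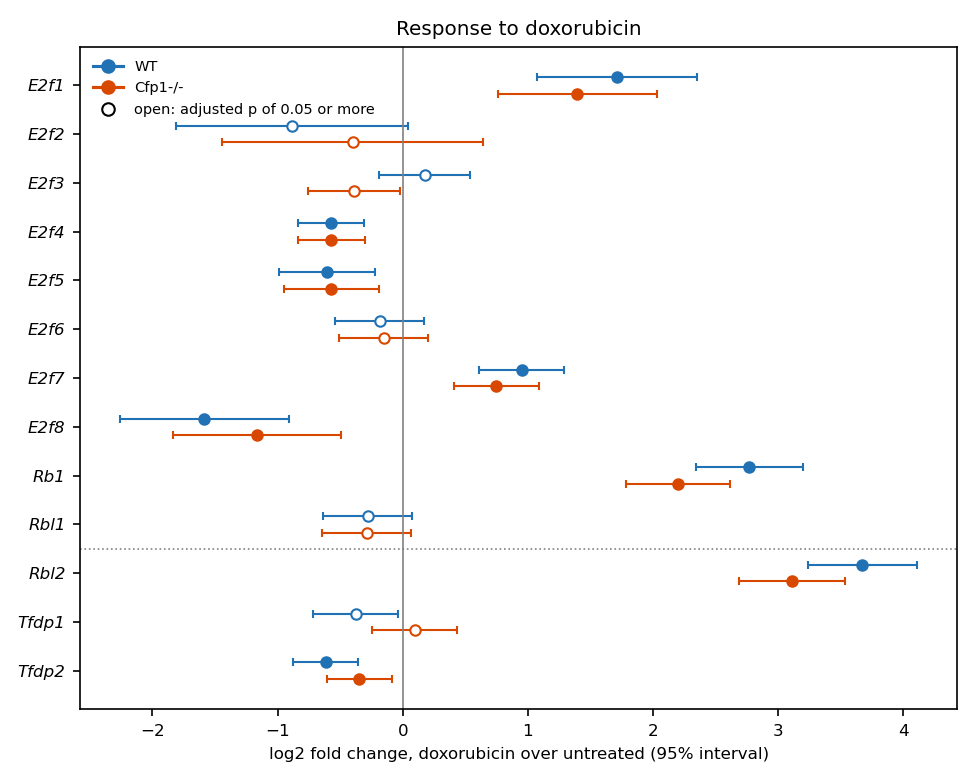
Log2 fold change of treated over untreated cells (horizontal axis) for the 10 members and, below the dotted line, Rbl2, Tfdp1 and Tfdp2, in WT (blue) and Cfp1-/- (orange) cells, with 95% intervals from the edgeR fit. Filled points had an adjusted p under 0.05; E2f1, E2f7 and Rb1 lie to the right of 0 and E2f4, E2f5 and E2f8 to the left in both lines.

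The next comparison asks whether the lines responded differently, by the difference of the log2 fold changes in Cfp1-/- and WT cells. No member was called, against 0.114% of all genes called higher and 0.121% called lower (18 and 19 genes by edgeR's quasi-likelihood test). At an unadjusted p under 0.05 there were 1671 genes, and DESeq2's Wald test called 96 higher and 117 lower. E2f3 and Rb1 had the lowest unadjusted p-values of the members, each with a difference of -0.57. For E2f3 the standard error was 0.23, the 95% interval -1.09 to -0.051 and the adjusted p 0.429. For Rb1 the standard error was 0.25 and the adjusted p 0.471. The differences of E2f4 (0.0025, 95% interval -0.38 to 0.38), E2f5 (0.032, -0.51 to 0.57), E2f6 (0.032, -0.47 to 0.54) and Rbl1 (-0.0065, -0.51 to 0.50) were close to 0, and the intervals still hold differences of up to 0.57. For E2f1, E2f2, E2f7 and E2f8 they were -0.32, 0.48, -0.20 and 0.42, with standard errors of 0.40, 0.62, 0.21 and 0.42. With the replicate block 108 genes were called higher and 135 lower, none of them a member, and the adjusted p of E2f3 was 0.189.

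The genotype comparison asks which members differ between the lines before treatment. In untreated Cfp1-/- cells E2f2, E2f6, E2f4 and E2f7 were lower and Rb1 was higher than in untreated WT cells, by edgeR's quasi-likelihood test. The 1 member called higher stands against 17.9% of all genes and the 4 called lower against 16.1%. No member passed the further limits on fold change and mean, which 3.33% of all genes passed, and E2f2 passed that on fold change alone. The median log2 fold change was -0.41 over the members and 0.01 over all tested genes. E2f2 differed most, with 344 and 198 normalized counts in WT and 55.6 and 39.7 in Cfp1-/- replicates. Its log2 fold change was -2.48 (standard error 0.44, adjusted p = 0.00282). Its raw counts in the Cfp1-/- replicates were 60 and 47, so its level there rests on few reads. E2f6 stood at 942 and 1114 in WT and 686 and 613 in Cfp1-/- cells (log2 -0.63, standard error 0.16, adjusted p = 0.0136). E2f4 stood at 2614 and 2643 against 1791 and 1741 (-0.54, 0.12, adjusted p = 0.00713), and E2f7 at 893 and 1113 against 769 and 676 (-0.44, 0.15, adjusted p = 0.0472). Rb1 was higher, at 970 and 719 against 471 and 445 (0.91, 0.18, adjusted p = 0.005). For all 5 of these members the replicates of the lines did not overlap. The summed level of 5 trophectoderm markers, most of it Krt8, was also lower in untreated Cfp1-/- cells. It was 242 to 442 normalized counts with all 5 above 3 counts, against 1049 to 2620 in WT cells with 4 of 5 above (not Elf5). The markers did not move together. Of the 4 tested, Krt8 was called lower (-3.39) and Elf5 higher (5.14), and the median log2 fold change was 0.86. The part of these markers in the differences of the members was not tested.

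Of the other members, E2f3 and E2f8 were also lower in both untreated Cfp1-/- replicates than in both WT replicates, with log2 fold changes of -0.38 (standard error 0.16, adjusted p = 0.0959) and -0.78 (0.29, adjusted p = 0.0659). Both passed with the replicate block, at -0.39 (adjusted p = 0.0366) and -0.81 (adjusted p = 0.00143). Without a block E2f8 also passed DESeq2's Wald test (-0.81, adjusted p = 0.0235). It passed edgeR's test with no filter on low counts (-0.78, adjusted p = 0.0209) and with the groups compared alone (-0.76, adjusted p = 0.0342). It did not pass under total count scaling (-0.59, adjusted p = 0.138). E2f1 (0.0022, 95% interval -0.64 to 0.64), E2f5 (-0.082, -0.46 to 0.30) and Rbl1 (0.024, -0.33 to 0.38) overlapped between the lines. Total count scaling moved the median of all genes by 0.19 and the genes called higher and lower from 2825 and 2537 to 3849 and 1610. E2f6 (-0.44, adjusted p = 0.0503) and E2f7 (-0.25, adjusted p = 0.211) were then not called by edgeR's test. E2f7 was also not called with no filter on low counts (-0.45, adjusted p = 0.0526), first technical replicates alone (-0.39, adjusted p = 0.0636) or the groups compared alone (-0.42, adjusted p = 0.0935). The call of E2f6 was lost without untreated WT replicate 2 (-0.51, adjusted p = 0.0982) or untreated Cfp1-/- replicate 2 (-0.55, adjusted p = 0.0858). That of E2f7 was lost in every fit that left out 1 library except the fit without untreated WT replicate 1, with adjusted p from 0.0535 without treated WT replicate 2 to 0.30 without untreated WT replicate 2, where its value was -0.28.

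**Figure D4:**
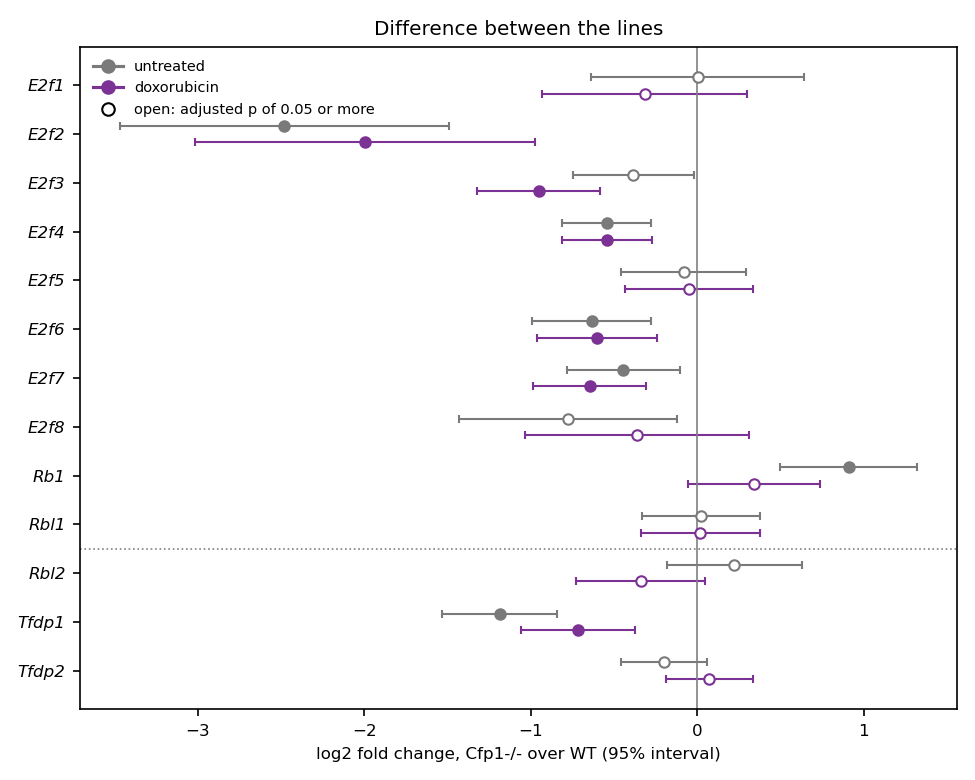
Log2 fold change of Cfp1-/- over WT cells (horizontal axis) for the 10 members and, below the dotted line, Rbl2, Tfdp1 and Tfdp2, in untreated (grey) and doxorubicin-treated (purple) cells, with 95% intervals from the edgeR fit. Filled points had an adjusted p under 0.05; E2f2, E2f4, E2f6, E2f7 and Tfdp1 lie to the left of 0 in both conditions.

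With doxorubicin, E2f2, E2f3, E2f7, E2f6 and E2f4 were lower in Cfp1-/- than in WT cells and no member was higher, by edgeR's quasi-likelihood test. These 5 stand against 10.8% of all genes called lower and 15.1% called higher, and none passed the further limits, which 2.61% of all genes passed. The median log2 fold change was -0.45 over the members and 0.02 over all tested genes. The log2 fold changes were -2.00 for E2f2 (standard error 0.46, adjusted p = 0.0122), -0.95 for E2f3 (0.17, adjusted p = 0.00373), -0.65 for E2f7 (0.15, adjusted p = 0.0132), -0.60 for E2f6 (0.16, adjusted p = 0.0232) and -0.54 for E2f4 (0.12, adjusted p = 0.0107). E2f3 stood at 1092 and 899 normalized counts in treated WT and 529 and 482 in treated Cfp1-/- replicates, and none of these 5 members overlapped between the lines. Rb1, at 3288 and 2773 in WT and 3362 and 4186 in Cfp1-/- cells, was not called (0.34, standard error 0.18, adjusted p = 0.182). It passed with the replicate block and without the second run of treated Cfp1-/- replicate 1, at 0.41 (adjusted p = 0.0365). E2f1 (-0.31, 95% interval -0.93 to 0.30), E2f5 (-0.05, -0.43 to 0.33), E2f8 (-0.36, -1.03 to 0.31) and Rbl1 (0.018, -0.34 to 0.38) overlapped between the lines. Leaving out 1 library ended calls here too. Without treated Cfp1-/- replicate 2 only E2f3 passed, with E2f2 at -1.54 (adjusted p = 0.0907), E2f4 at -0.51 (0.0683), E2f6 at -0.53 (0.133) and E2f7 at -0.65 (0.0729). Without treated WT replicate 2 the calls of E2f4 (-0.51, adjusted p = 0.0568), E2f6 (-0.52, 0.109) and E2f7 (-0.61, 0.0609) were lost, without treated Cfp1-/- replicate 1 those of E2f6 (-0.69, adjusted p = 0.0659) and E2f7 (-0.66, 0.0661), and without treated WT replicate 1 that of E2f2 (-1.59, adjusted p = 0.055).

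Some of these genes lie on chromosomes whose genes differed as a whole between the lines. The chromosome values cover only genes averaging at least 200 normalized counts in the libraries compared. The median of 0.01 given above for untreated cells covers all tested genes. E2f4 lies on chromosome 8 (107821563 to 107829269, NCBIM37), where the median log2 fold change of Cfp1-/- over WT was -0.29 over 495 genes in untreated cells, against -0.067 on the other chromosomes. The medians were also below 0 on chromosomes 13 with E2f3 (-0.25), 12 with E2f6 (-0.23), 10 with E2f7 (-0.19) and 4 with E2f2 (-0.15), members that were likewise lower in both untreated Cfp1-/- replicates. Most chromosomes had a median below 0, so this does not set these apart. Among them were chromosomes 3 with E2f5 (-0.16) and 2 with E2f1 and Rbl1 (-0.13), and these members overlapped between the untreated lines. The share of genes lower in untreated Cfp1-/- cells was 69.5% on chromosome 8, 71.1% on 13 and 69.8% on 12. On all chromosomes other than the one named it was 55.0%, 55.2% and 55.3%. Within 5 Mb of E2f4, 40 of 57 genes were lower in untreated Cfp1-/- cells, with a median of -0.28. In treated cells 46 of 59 were lower, with a median of -0.29. Off chromosome 8, 55.0% of genes were lower in untreated and 53.2% in treated cells. E2f8 lies on chromosome 7 (56121799 to 56136966), where the median was 0.45, and was itself lower in both untreated Cfp1-/- replicates. Rb1 lies on chromosome 14 (73583480 to 73725629), where the median was -0.042. The part of these chromosome-wide values in the differences of the members was not tested.

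The dimer partners, the other pocket protein, the subunits of the MuvB core, and also Mybl2 and Foxm1 were described as a list of 10 genes. The MuvB core joins E2f4 and a pocket protein in a repressor complex, of which Mybl2 and Foxm1 are not part. In WT cells 1 of 10 rose and 4 fell with doxorubicin (median log2 fold change -0.40, all genes 0.06), and in Cfp1-/- cells 1 rose and 5 fell (median -0.41, all genes 0.01). Of all genes 26.5% were called higher and 21.8% lower in the WT and 27.8% and 21% in the Cfp1-/- response. Rbl2 was the gene that rose in both. Mybl2, which replaces the pocket protein on MuvB in S phase, fell by 1.35 on the log2 scale in WT (adjusted p = 0.00345) and by 1.17 in Cfp1-/- cells (adjusted p = 0.00689). The MuvB subunit Lin9 fell by 0.81 in WT (adjusted p = 0.00171) and by 0.75 in Cfp1-/- cells (adjusted p = 0.0026). Lin37 fell by 0.84 in Cfp1-/- cells (adjusted p = 0.0429) and had 0.011 in WT cells (adjusted p = 0.98). Tfdp2 fell in both lines, by 0.62 (adjusted p = 0.00196) and 0.35 (adjusted p = 0.0327). Tfdp1 had log2 fold changes of -0.38 in WT (adjusted p = 0.0662) and 0.094 in Cfp1-/- cells (adjusted p = 0.64). Between the lines Tfdp1 was lower in Cfp1-/- cells, with 3952 and 4834 normalized counts in WT against 1884 and 1902 in Cfp1-/- cells when untreated (log2 -1.19, standard error 0.15, adjusted p = 0.000648) and 3177 and 3379 against 2189 and 1734 when treated (-0.72, 0.15, adjusted p = 0.00951). In untreated cells Lin37 was higher (1.16, adjusted p = 0.0163) and the histone chaperone Rbbp4 lower (-0.63, adjusted p = 0.0163) in Cfp1-/- cells.

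Upstream of the family, 15 of 16 listed G1 cyclins, kinases and kinase inhibitors were tested. With doxorubicin 2 rose and 6 fell in WT cells (median -0.32) and 3 rose and 6 fell in Cfp1-/- cells (median -0.28), against 21.8% and 21% of all genes called lower and 26.5% and 27.8% called higher. The inhibitors Cdkn1a and Cdkn2b rose in both lines, in WT cells with log2 fold changes of 3.33 (adjusted p = 1.3e-05) and 2.63 (adjusted p = 2.21e-05), and in Cfp1-/- cells with 2.07 (adjusted p = 0.000124) and 2.68 (adjusted p = 2.26e-05). Cdkn1c rose in Cfp1-/- cells (2.11, adjusted p = 0.00383) and had 1.05 in WT cells (adjusted p = 0.063). The G1 kinase Cdk6 fell by 2.04 in WT (adjusted p = 3.24e-05) and by 1.88 in Cfp1-/- cells (adjusted p = 6.00e-05). Cdkn1b, also an inhibitor, fell by 1.72 in WT (adjusted p = 0.000313) and fell by 2.45 in Cfp1-/- cells (adjusted p = 6.64e-05). In untreated Cfp1-/- cells 3 of these genes were higher and 8 lower than in WT cells (median -0.86, all genes 0.01), and in treated cells 1 was higher and 7 lower (median -0.68), against 17.9% of all genes higher and 16.1% lower without and 15.1% and 10.8% with treatment. Ccnd2, a D-type cyclin, was lower by 2.94 (adjusted p = 0.00339), Cdkn1c was lower by 2.42 (adjusted p = 0.00357), and Cdkn2a, which encodes inhibitors of Cdk4 and of Mdm2, was higher by 1.58 (adjusted p = 0.0144) before treatment.

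Downstream, 23 genes of DNA replication and S phase that E2F factors are known to bind were tested. In WT cells 13 fell and 1 rose with doxorubicin (median -0.45), and in Cfp1-/- cells 16 fell and 1 rose (median -0.50), against 21.8% and 21% of all genes called lower and 26.5% and 27.8% called higher. The values of this and the other lists are given with TMM alone. Total count scaling moved the median of all tested genes up by 0.31 in the WT and 0.21 in the Cfp1-/- response, so small decreases depend on the scaling. Rrm2, the small subunit of ribonucleotide reductase, was the gene that rose in both lines, by 0.58 (adjusted p = 0.0208) and 0.66 (adjusted p = 0.0118), and it is named here after its values were seen. Ccne1, the E-type cyclin that starts S phase, fell most, by 1.52 in WT (adjusted p = 4.22e-05) and by 1.22 in Cfp1-/- cells (adjusted p = 0.000157). Pola1, the catalytic subunit of DNA polymerase alpha, fell by 0.73 in WT (adjusted p = 0.00575) and by 0.93 in Cfp1-/- cells (adjusted p = 0.00156). Mcm5, of the replicative helicase, fell by 0.64 in WT (adjusted p = 0.00209) and by 0.61 in Cfp1-/- cells (adjusted p = 0.00274). Uhrf1, which recruits the maintenance DNA methyltransferase, fell by 0.64 in WT (adjusted p = 0.00656) and by 0.93 in Cfp1-/- cells (adjusted p = 0.000885). Between the lines 14 of 23 were lower and 1 (Brca1) higher in untreated Cfp1-/- cells (median -0.46), and 13 were lower and none higher in treated cells (median -0.64), against 16.1% of all genes lower and 17.9% higher without and 10.8% and 15.1% with treatment. Ccne1 (-1.41, adjusted p = 0.000229), Rrm2 (-1.05, adjusted p = 0.00224) and Ccne2 (-0.86, adjusted p = 0.04) were lower before treatment, and Uhrf1 (-1.15, adjusted p = 0.0012), Ccne1 (-1.11, adjusted p = 0.0012) and Rrm2 (-0.97, adjusted p = 0.00465) with doxorubicin.

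**Figure D5:**
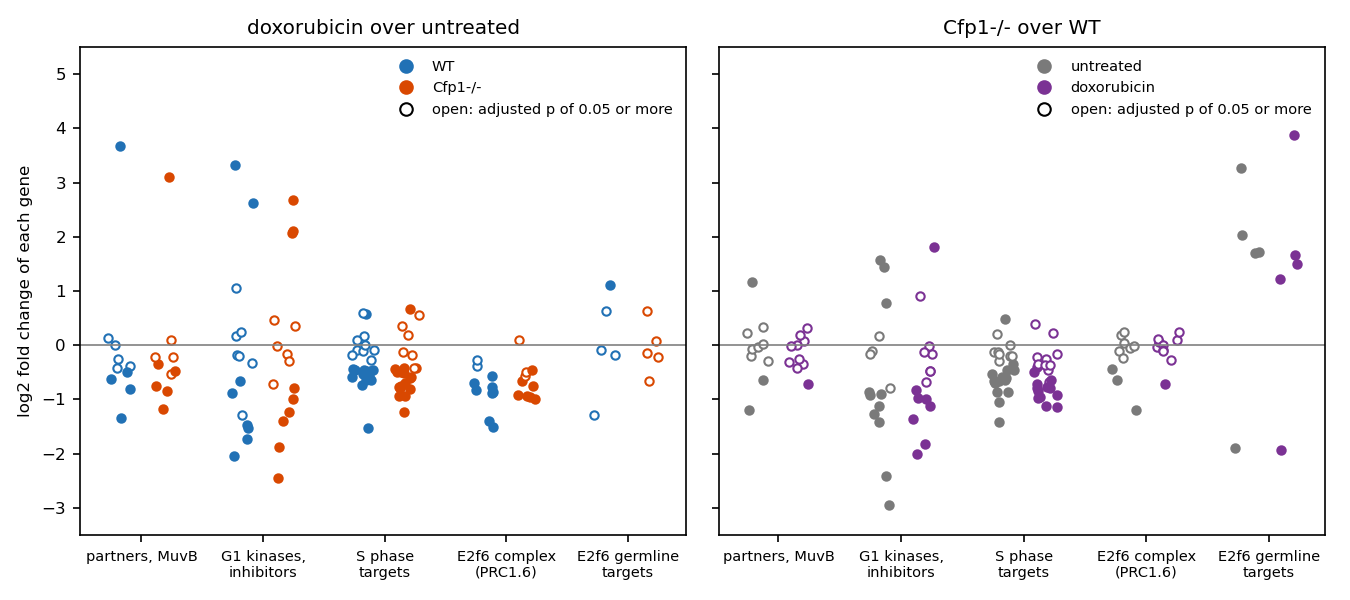
Log2 fold change (vertical axis) of each tested gene in 5 lists around the family (horizontal axis), for treated over untreated cells (left) and Cfp1-/- over WT cells (right). Filled points had an adjusted p under 0.05; among the S phase targets 13 fell in WT and 16 in Cfp1-/- cells with doxorubicin, and among the E2f6 germline targets 4 of 5 were higher in Cfp1-/- cells.

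E2f6 was described with the subunits of its Polycomb complex (PRC1.6) and with germline genes it is known to silence. Of 10 complex genes 8 fell in WT (median -0.80) and 7 in Cfp1-/- cells (median -0.71) with doxorubicin, and none rose, against 21.8% and 21% of all genes called lower and 26.5% and 27.8% called higher. Cbx3, a heterochromatin protein, fell by 1.5 in WT (adjusted p = 0.000148) and by 0.94 in Cfp1-/- cells (adjusted p = 0.00215), and Mga, the scaffold of the complex, fell by 1.39 (adjusted p = 5.56e-05) and 0.99 (adjusted p = 0.000417). L3mbtl2, which binds chromatin, fell by 0.88 in WT (adjusted p = 0.000343) and by 0.66 in Cfp1-/- cells (adjusted p = 0.00175). Wdr5, a subunit shared with histone methyltransferases, fell by 0.87 in WT (adjusted p = 0.000902) and by 0.95 in Cfp1-/- cells (adjusted p = 0.000563). Between the untreated lines 3 of the 10 were lower in Cfp1-/- cells, Tfdp1, Cbx3 (-0.64, adjusted p = 0.0207) and Mga (-0.44, adjusted p = 0.0378), and in treated cells only Tfdp1 was, against 16.1% and 10.8% of all genes. Of the 5 germline genes 4 were higher and 1 was lower in Cfp1-/- cells in both conditions, against 17.9% and 15.1% of all genes called higher. Smc1b, a meiotic cohesin subunit, stood at 308 and 172 normalized counts in WT and 1165 and 780 in Cfp1-/- cells without treatment (log2 2.04, adjusted p = 0.00258). Stag3, also a meiotic cohesin subunit, went the other way, at 4281 and 3605 against 1122 and 950 (-1.90, adjusted p = 0.000134). The near-identical tubulin genes Tuba3a (1.71 untreated and 1.67 treated, adjusted p = 0.000925 and 0.00182) and Tuba3b may share reads, so their values are less certain, and Tuba3b had at most 6.25 normalized counts in any WT replicate. Slc25a31, a germ cell ADP/ATP carrier, was the germline gene that rose with doxorubicin in WT cells (1.12, adjusted p = 0.0139), with 0.64 in Cfp1-/- cells (adjusted p = 0.0839). None of these lists had a gene called for a different response between the lines.

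For each member the genes with the most similar pattern over the 8 biological libraries were sought among 9499 genes, by the root-mean-square difference of the centred log2(normalized count + 1). Rb1 and E2f2 were the members with the largest spread over libraries (1.27 and 1.25 on that scale), followed by E2f8 (0.84) and E2f1 (0.79). The closest patterns to Rb1 were those of Slc4a8, Prkd2 and Tmem19, at differences of 0.143 to 0.172. Those closest to E2f2 were Stag3, Myc and Ccnb1ip1, at 0.424 to 0.460, a looser match. Those closest to E2f8 were Jarid2, 8430410A17Rik and Dmrt1, at 0.154 to 0.191, and those closest to E2f1 were Kifc5b, Socs5 and Pcyox1l, at 0.123 to 0.138. The same 8 libraries, with their group differences, stand behind every pattern, so these differences are a description of likeness only.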

How the data were processed

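The series measured RNA from mouse ES cells of 4 groups in 16 samples, assigned to groups and replicates from their labels. The libraries were strand-specific and depleted of ribosomal RNA. Per the methods, read pairs were mapped by the authors with STAR (version 2.2.1 in the submitters' processing notes) on NCBIm37, and HTSeq-count (union mode, stranded) assigned them to Ensembl genes. They deposited raw counts per technical replicate, and a signal per biological replicate, the summed count divided by a DESeq size factor, called the normalized count here. Technical replicates were summed to 8 biological libraries, with totals from 14880589 to 29422711 counts, and 3 counts in a library were taken as the floor. Fits used edgeR 4.0.16 under R 4.3.3 (filterByExpr, TMM, glmQLFit and glmQLFTest, all 4 groups in 1 fit, no block, Benjamini-Hochberg adjustment over 15758 genes, threshold 0.05). Standard errors were derived from the test statistics. The further limits were a 2.5-fold change and, on average, 200 normalized counts. The fit was tested on simulated counts.

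Same-numbered biological replicates deviated together (correlation of deviations from the group means 0.184 to 0.610 over 9499 genes in 6 pairs of groups), so the replicate block was an alternative fit. What a number marks is not given in the sources used here. The 2 replicates of a group deviate by opposite amounts from its mean, so arbitrary numbers could give such correlations too, and pairing is not established. Alternatives were DESeq2 1.42.0 (size factors, Wald test), total count scaling, no filter on low counts, the replicate block, fits without the second run of treated Cfp1-/- replicate 1, first technical replicates alone, the groups compared alone, other limits and each biological replicate left out. The fit without the second runs of both treated replicates 1 was added after the data were seen. Exon lengths and overlapping genes came from GENCODE annotation of NCBIM37, and promoter windows from RefSeq (GRCm38.p6), placed in NCBIM37 by exact match.

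The 10 members and the lists (partners and MuvB, G1 kinases and inhibitors, S phase targets, the E2f6 complex and its germline targets, and markers of ES cells, fibroblasts, primitive endoderm and trophectoderm) were chosen with earlier results of these data known. All members are named, with up to 3 genes of each of the first 5 lists with the largest change among those called, Rbl2, Tfdp1 and Tfdp2, and Cdkn1a, Mdm2 and Cxxc1 as checks. Patterns were compared with a pseudocount of 1 among genes averaging 200 normalized counts or more. Chromosome medians and the neighbours of E2f4 were limited to genes with that average in the libraries compared. Other tables of the series were not used here.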

Additional observations from a re-analysis of the deposited data

Results flagged for a closer look

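E2f3 is given here because its log2 ratios with treatment were above 0 in both WT and below 0 in both Cfp1-/- replicates, although in WT replicate 2 the ratio was close to 0 and the WT groups overlapped. The log2 ratios of treated over untreated same-numbered replicates were 0.24 and 0.0055 in WT cells and -0.48 and -0.38 in Cfp1-/- cells. The difference of the fitted responses, Cfp1-/- minus WT, was -0.57 (standard error 0.23). edgeR's quasi-likelihood test of that difference gave an unadjusted p of 0.0344 and an adjusted p of 0.429 over 15758 genes, and with the replicate number as a block the adjusted p was 0.189, so the difference did not pass the threshold in either fit. Neither the WT response (adjusted p = 0.399) nor the Cfp1-/- response (adjusted p = 0.0732) passed the same test without the block.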

How the results depend on the processing

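Of the 22 member values called, 212 of 220 under the alternatives other than leaving out a replicate stayed on the same side of the threshold and 8 lost the call, none with a change of sign. Of 176 fits of these values with 1 biological replicate left out, 26 lost the call and none changed sign. Total count scaling left 1 member lower in the WT response (E2f8, of 3) and 2 lower in untreated Cfp1-/- cells (E2f2 and E2f4, of 4). Without the mean count limit 1 member (E2f2) passed the fold change limit in each genotype comparison, against 0 with it. The replicate block changed no call to a loss. It added E2f2 in the WT response (-0.87), E2f3 in the Cfp1-/- response (-0.39), and E2f3 (-0.39) and E2f8 (-0.81) in untreated Cfp1-/- against WT cells. Together with leaving out the affected run, the block added 1 member higher in treated Cfp1-/- cells, Rb1 (0.41). Of these, E2f8 was also called without a block by DESeq2's Wald test, with no filter and with the groups compared alone. E2f3 in the Cfp1-/- response was also called with DESeq2 size factors (-0.43). The numbers of members called lower ran, with each replicate left out, from 1 to 3 in the Cfp1-/- response, from 2 to 4 in untreated and from 1 to 5 in treated Cfp1-/- against WT cells.

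Over all genes, the response difference had 18 genes called higher and 19 lower, and 96 and 117 by DESeq2's Wald test, 62 and 71 with no filter, 108 and 135 with the block, 152 and 200 with the block without the affected run, and at most 7 and 6 with 1 replicate left out. Total count scaling moved the treated genotype comparison from 2374 higher and 1700 lower to 2824 and 1255.

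Values near 0 that were not called changed sign. Under total count scaling they became 0.13 (E2f6) and 0.034 (Rbl1) in the WT response, 0.062 (E2f6) in the Cfp1-/- response, -0.097, -0.071 and -0.068 (E2f4, E2f5, E2f6) in the response difference, and 0.11 and 0.040 (E2f5) in untreated and treated genotype comparisons. The response difference of E2f4 was -0.0030 with no filter, -0.065 with first technical replicates alone and -0.012 without both second runs, and that of Rbl1 0.0026 without the affected run and 0.0046 with the block as well. In untreated cells the genotype value of E2f1 was -0.026 with DESeq2 size factors and with its Wald test and -0.0016 with no filter, and that of Rbl1 -0.0037 and -0.0049 with size factors and Wald test. In treated cells that of E2f5 was 0.014 with first technical replicates alone, and that of Rbl1 -0.0062 and -0.0075 with size factors and Wald test, -0.062 with first technical replicates alone, -0.0022 with the groups alone and -0.058 without both second runs. With each replicate left out, the response difference ran from -0.67 to 0.14 (E2f1), -0.19 to 0.95 (E2f2), -0.042 to 0.041 (E2f4), -0.17 to 0.20 (E2f5), -0.13 to 0.12 (E2f6) and -0.14 to 0.14 (Rbl1), and E2f2 in the Cfp1-/- response from -1.08 to 0.060. Genotype values ran in untreated cells from -0.19 to 0.19 (E2f1), -0.17 to 0.020 (E2f5) and -0.034 to 0.10 (Rbl1), and in treated cells from -0.67 to 0.14 (E2f1), -0.25 to 0.12 (E2f5), -0.74 to 0.13 (E2f8) and -0.12 to 0.16 (Rbl1). The cause of these shifts was not tested. A group of 2 replicates limits what can be called, and E2f2 rests on 23 to 60 raw counts in Cfp1-/- cells. A fit without 1 replicate assumes that the lone library of its group varies like the others.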

Other observations

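The pluripotency genes moved with doxorubicin in both lines. Of the 8 ES cell markers 7 fell in WT and 7 in Cfp1-/- cells, against 21.8% and 21% of all genes called lower. Nanog, a core pluripotency factor, fell from 6419 and 3651 to 914 and 506 normalized counts in WT cells (log2 fold change -2.78) and from 14050 and 13038 to 2907 and 1635 in Cfp1-/- cells (-2.53). Between the untreated lines Nanog was higher (1.46) and Pou5f1 (-0.65), Tdgf1 (-0.53) and Zfp42 (-1.31) were lower in Cfp1-/- cells. These 4 were the ES cell markers that passed edgeR's test there, against 17.9% of all genes called higher and 16.1% called lower.

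Of 6 fibroblast markers tested 3 rose with doxorubicin in each line, Col1a1, Pdgfra and Thy1. Of all genes 26.5% were called higher in the WT and 27.8% in the Cfp1-/- response. The other 3 were not called in either line. Col3a1, Dcn and Col1a2 had log2 fold changes of -0.81, -0.57 and -0.32 in WT and 1.02, -1.29 and 0.95 in Cfp1-/- cells. Between the untreated lines Col1a1, Col1a2 and Col3a1 were lower and Pdgfra was higher in Cfp1-/- cells. Pdgfra, a growth factor receptor, rose from 22.9 and 32.3 to 238 and 193 normalized counts in WT cells. Of 5 primitive endoderm markers tested none changed in WT cells and 2, Gata4 and Sox17, rose in Cfp1-/- cells, from at most 6.49 to at most 24.5 normalized counts. Of 4 trophectoderm markers tested, Hand1 rose in WT cells, Eomes fell in Cfp1-/- cells, and Krt8 was lower and Elf5 higher in Cfp1-/- than in WT cells in both conditions. These genes are named after their values were seen.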
